A study of Homo sapiens with 18 samples.

Results

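The clustered protocadherin genes are the members of the alpha, beta and gamma clusters that lie one after another on chromosome 5. They were chosen by symbol alone, as every gene on that chromosome named PCDHA, PCDHB or PCDHG followed by a number or by a subfamily letter and a number, which gave 59 genes of 19681 whose promoters were examined. The alpha cluster held 16 of them, the beta cluster 19 and the gamma cluster 24, and 53 were protein-coding and 6 pseudogenes. All lay on the forward strand of GRCh38, and the clusters spanned chr5:140786140-141012347 (alpha, 226.2 kb), chr5:141051374-141249365 (beta, 198.0 kb) and chr5:141330514-141512975 (gamma, 182.5 kb).

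Histone methylation was mapped by chromatin immunoprecipitation sequencing (ChIP-seq) in V16D, a line derived from LNCaP prostate cancer cells that grows after castration. The cells were transduced, in 3 biological replicates per group, with a control lentivector (V16D/CTL) or with a lentivector that overexpresses the long noncoding RNA H19 (V16D/H19), and both groups were grown in RPMI1640 with fetal bovine serum. H3K4me3, found at active promoters, and H3K27me3, which is laid down by Polycomb repressive complex 2, were each profiled in all 6 cultures, which gave 12 ChIP libraries, each with the input library of its own culture as its control. Both groups therefore come from a single line, and the H19 gene itself held no peak of either mark within 10 kb in any list, so its locus gave no check of the labels. The comparison asks whether overexpression of H19 alters these marks, and a promoter is here the stretch within 1 kb of a gene start.

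Clustered protocadherins are cell surface adhesion proteins of the cadherin superfamily, best known from neurons, where each cell switches on its own small subset of isoforms and so acquires an identity by which its branches recognise each other. Each alpha and gamma isoform has a variable first exon with its own promoter, spliced to constant exons that its cluster shares, whereas each beta gene is a single exon with no constant part. Choice among the promoters involves CTCF and cohesin, which loop a chosen promoter to an enhancer, and DNA methylation of the promoters that stay silent. The C-type isoforms (PCDHAC1, PCDHAC2, PCDHGC3, PCDHGC4 and PCDHGC5) lie at the ends of the alpha and gamma clusters and are used more uniformly among neurons.

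A promoter sequence running from 250 bases before to 50 bases after the start was found in RefSeq (GRCh38.p14) for 47 of the 59 members, and the protein-coding members without one were PCDHA3, PCDHA13, PCDHB6, PCDHB11, PCDHGA12 and PCDHGC5. The letters CGCT, the core of an element known from these promoters, stood on either strand in 46 of the 47 (97.9%) and in 69.2% of 27258 other promoters of that length. On the strand of the gene, within 120 to 20 bases before the start, CGCT stood in 44 of 47 members (93.6%) against 27.7% of the others, and the longer CGCTG in 37 of 47 (78.7%) against 12.4%. That window and the longer motif were chosen after the sequences were seen, and every CGCTG also counts as a CGCT. The first CGCTG of the window lay at a median of 55 bases before the start. PCDHB5, the member with the highest H3K4me3, had no CGCT in that window and so has no stretch below. The stretches below, 5′ to 3′ on the forward strand with CGCT in capitals, are shown because the letters around it repeat within a cluster, and because PCDHA2, PCDHB3 and PCDHGA6, which had no H3K4me3 peak in any library, stand beside members that had one.
PCDHA1, chr5:140786088-140786115: tggccacatgatgtCGCTgtacaccaca
PCDHA2, chr5:140794783-140794810: tagccacatgatgtCGCTgtccaccata
PCDHA4, chr5:140806981-140807008: gagccacatgatgtCGCTctttaccaca
PCDHB2, chr5:141094546-141094573: gagacgcggggtggCGCTgcagccttag
PCDHB3, chr5:141100395-141100422: cgaacgcatggtggCGCTgttgactaag
PCDHB15, chr5:141245316-141245343: acaacgcatggtggCGCTgcaggctaag
PCDHGB2, chr5:141359923-141359950: aaacctctgagcgtCGCTgttggtcaaa
PCDHGA6, chr5:141373837-141373864: aggactctaagcgtCGCTgttgaccaac
PCDHGA7, chr5:141382651-141382678: aggactcacagcgcCGCTgttcaccaac
PCDHGA10, chr5:141412933-141412960: aggactctgagcgcCGCTgttcacctac

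The letters ccacatgatgt precede the core in the 3 alpha stretches, ggtgg in the 3 beta stretches, and agcg with 1 further letter in the 4 gamma stretches. CGCTG within that window stood in 12 of the 17 members with a sequence whose promoter had an H3K4me3 peak in all 6 libraries, and in 14 of the 16 with no such peak in any library. The exact string AGNNGGCGC, taken from the inner letters of the CTCF motif, stood on either strand in 3 of the 47 members (6.38%) and in 10.4% of the other promoters. It misses sites that differ by 1 letter, as the letters at the core of the 3 beta stretches do in the first. The share of promoters with a CTCF site was therefore not measured. TATAA stood in 17 members (36.2%) and in 21.2% of the others. Member promoters held few CpG dinucleotides, with a median of 7 in 300 bases against 14 in the other promoters, and a median GC content of 39.7% against 58.3%. The C-type promoters held the most, 27 at PCDHAC1, 23 at PCDHGC4, 18 at PCDHGC3 and, after PCDHGB6 with 16, 15 at PCDHAC2. The CpG median was 6 among members with H3K4me3 in all 6 libraries and 7 among those with none.

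Each cluster had promoters with H3K4me3, and the marked promoters were scattered among unmarked neighbours. H3K4me3 peaks covered 19 of the 59 member promoters in all 6 libraries, 17 in 1 to 5 libraries and 23 in none. The 19 were PCDHA4, PCDHAC1 and PCDHAC2 of the alpha cluster, 7 of the 19 beta members and 9 of the 24 gamma members. H3K27me3 leaned towards the alpha cluster, and stood over 15 of the 16 alpha promoters in at least 1 library, 17 of the 19 beta promoters and 13 of the 24 gamma promoters, but in all 6 libraries only at PCDHA9, PCDHA12, PCDHAC1 and PCDHAC2. PCDHB9, PCDHGA6, PCDHGB7 and PCDHGC5 had no peak of either mark in any library.

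**Figure D1:**
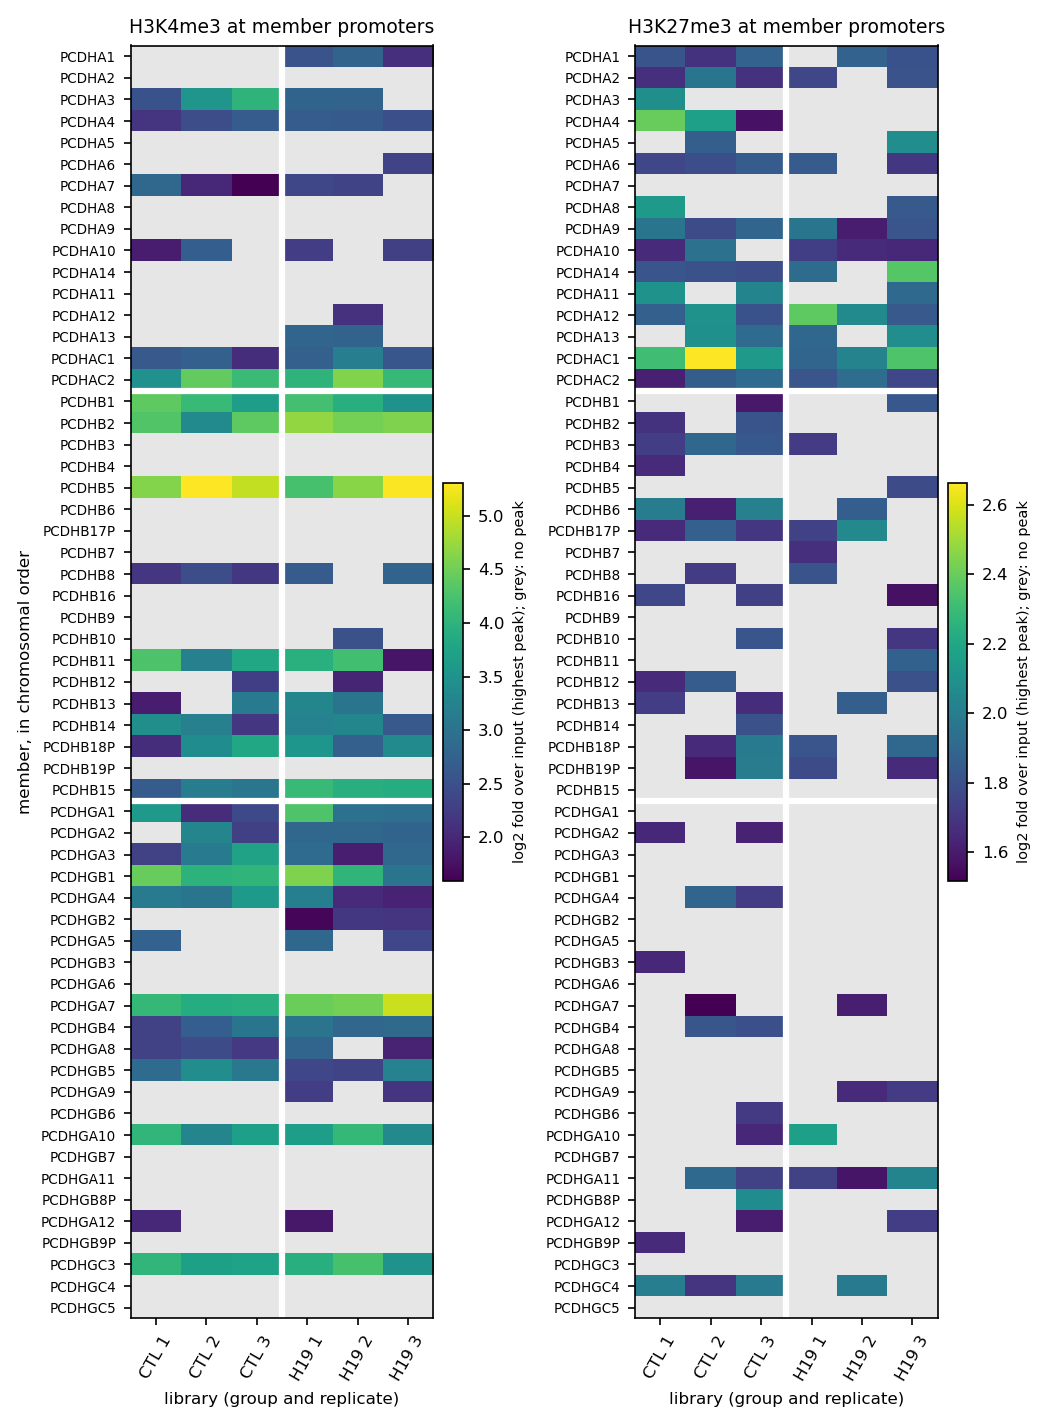
Highest fold over input of the peaks over each member promoter, as log2 on the colour scale, with the members in chromosomal order as rows and the libraries of each group as columns, H3K4me3 at the left and H3K27me3 at the right with separate scales. Grey means that the list holds no peak there; H3K4me3 has 19 rows filled in all 6 libraries, H3K27me3 has 4.

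Set beside the rest of the genome, these promoters were weakly marked with H3K4me3 and often touched by H3K27me3 in some libraries but not all. H3K4me3 covered 42.4% to 54.2% of the member promoters per library, and 62% to 63.3% of all promoters. H3K27me3 covered 22% to 52.5% of the member promoters and 9.14% to 11.5% of all promoters. It stood in at least 1 library at 76.3% of the members and 15.4% of all promoters. Of those, 91.1% and 58.1% were called in 1 to 5 libraries only. In all 6 libraries the mark stood at 6.78% of the members, near the 6.44% of all promoters. Among promoters with H3K4me3 in all 6 libraries, the median fold over input, averaged over the 6 libraries, was 11.8 for the 19 members and 48.7 for all 11972, and the median stretch covered was 679.5 against 1676 bases. H3K4me3 peaks at member promoters had a median width of 464.5 bases (172 peaks) against 1882 bases at all promoters, and their midpoints lay at a median of 183.5 bases after the start, downstream of it in the direction of transcription. H3K27me3 folds were closer, with a median of 3.82 for the 4 members and 4.31 for all 1267 promoters with a peak in all 6. The lists do not give the depth of their libraries, so no counting interval was computed, and a missing peak is not an absent mark.

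**Figure D2:**
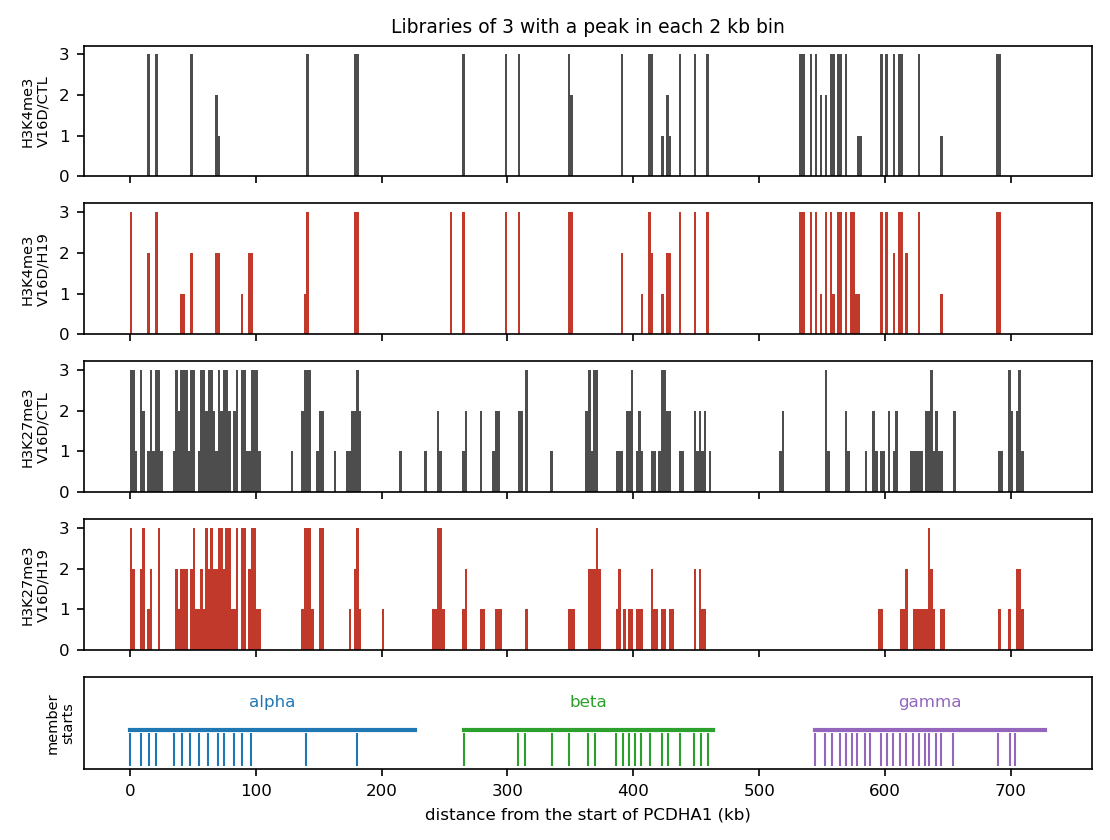
Number of the 3 libraries of a group with a peak in each 2 kb bin, plotted against the distance from the start of PCDHA1 in kb, for H3K4me3 and H3K27me3 in V16D/CTL (dark grey) and V16D/H19 (red), with member starts and cluster spans at the bottom. H3K27me3 is dense in both groups over the stretch of the alpha cluster that holds its closely spaced starts, and H3K4me3 stands as narrow bars over single starts.

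PCDHB5 had the highest H3K4me3 of all members. Its folds over input were 24.7, 39.7 and 31.2 in the 3 V16D/CTL libraries against 18.8, 25.2 and 39 in the 3 V16D/H19 libraries. The groups overlapped, with means of 31.9 ± 7.55 and 27.7 ± 10.3 (SD, n = 3 each). PCDHAC2, a C-type isoform, had folds of 11.1, 21.3 and 17.5 in V16D/CTL against 16.1, 24.4 and 17 in V16D/H19. PCDHGC3, the only C-type gamma isoform with H3K4me3, had 16.4, 13 and 13.4 against 15.2, 18.8 and 11.2. Neither C-type promoter separated the groups. PCDHB1 had folds of 21, 17.1 and 12.8 against 18.3, 15.2 and 11.2, and PCDHB11 had 19.3, 9.29 and 14.2 against 15.5, 18.1 and 3.47. In the gamma cluster, PCDHGB1 had folds of 21.9, 15.9 and 16.2 against 24.1, 16.2 and 8.14, PCDHGA10 had 16.4, 9.73 and 12.9 against 12.7, 16.7 and 10.1, and PCDHGA1 had 12, 4.18 and 5.33 against 19.6, 7.92 and 7.69. The pseudogene PCDHB18P had 4.20, 10.6 and 14.2 against 11.7, 6.62 and 10.3. In each of these the range of one group lay across that of the other.

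PCDHB2, PCDHB15 and PCDHGA7 were the members whose H3K4me3 folds were higher in every V16D/H19 library than in any V16D/CTL library. At PCDHB15, the last beta gene, the folds were 6.37, 8.98 and 8.28 in V16D/CTL against 17.3, 15.2 and 14.8 in V16D/H19, with means of 7.88 ± 1.35 and 15.8 ± 1.38 (SD, n = 3 each). The stretch of that promoter under peaks did not follow, at 817, 531 and 722 bases against 662, 712 and 633. At PCDHGA7 the folds were 16.8, 14.8 and 15.1 against 22.2, 23.1 and 32.3, and at PCDHB2 they were 19.8, 10.2 and 20.9 against 26.1, 23.1 and 24. That made 3 of 19 members, where 7.13% of all 11972 promoters with a peak in all 6 libraries were higher without overlap, and 0 of 19 were lower without overlap, where 3.96% of all were.

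None of these differences passed a test across all promoters. A linear model (limma) was fitted to the log2 of the highest fold at each of the 11972 promoters, with each library centred on its median, and called 0 promoters (0%) and 0 of the 19 members at a Benjamini-Hochberg adjusted p under 0.05. At an unadjusted p under 0.05 it had 746 promoters and 2 members. The difference on the log2 scale, V16D/H19 minus V16D/CTL, was 0.95 (SE 0.34, limma adjusted p = 0.70) for PCDHB15, 0.66 (SE 0.33, limma adjusted p = 0.805) for PCDHGA7 and 0.53 (SE 0.35, limma adjusted p = 0.85) for PCDHB2, the last of which was 0.20 without V16D/CTL replicate 2. The other member under an unadjusted 0.05 was PCDHGA4, chosen here after its values were seen, at -0.92 (SE 0.37, limma adjusted p = 0.758), with folds of 8.67, 8.20 and 12 in V16D/CTL against 9.15, 4.09 and 3.84 in V16D/H19. Of the 19 members 11 were higher and 8 lower, with a median of 0.05 against -0.01 over all promoters tested. The standard errors of the 19 ran from 0.33 to 0.44. A log2 difference like that at PCDHGA7 did not pass adjustment over the 11972 promoters, and the power to detect one of that size was not computed.

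**Figure D3:**
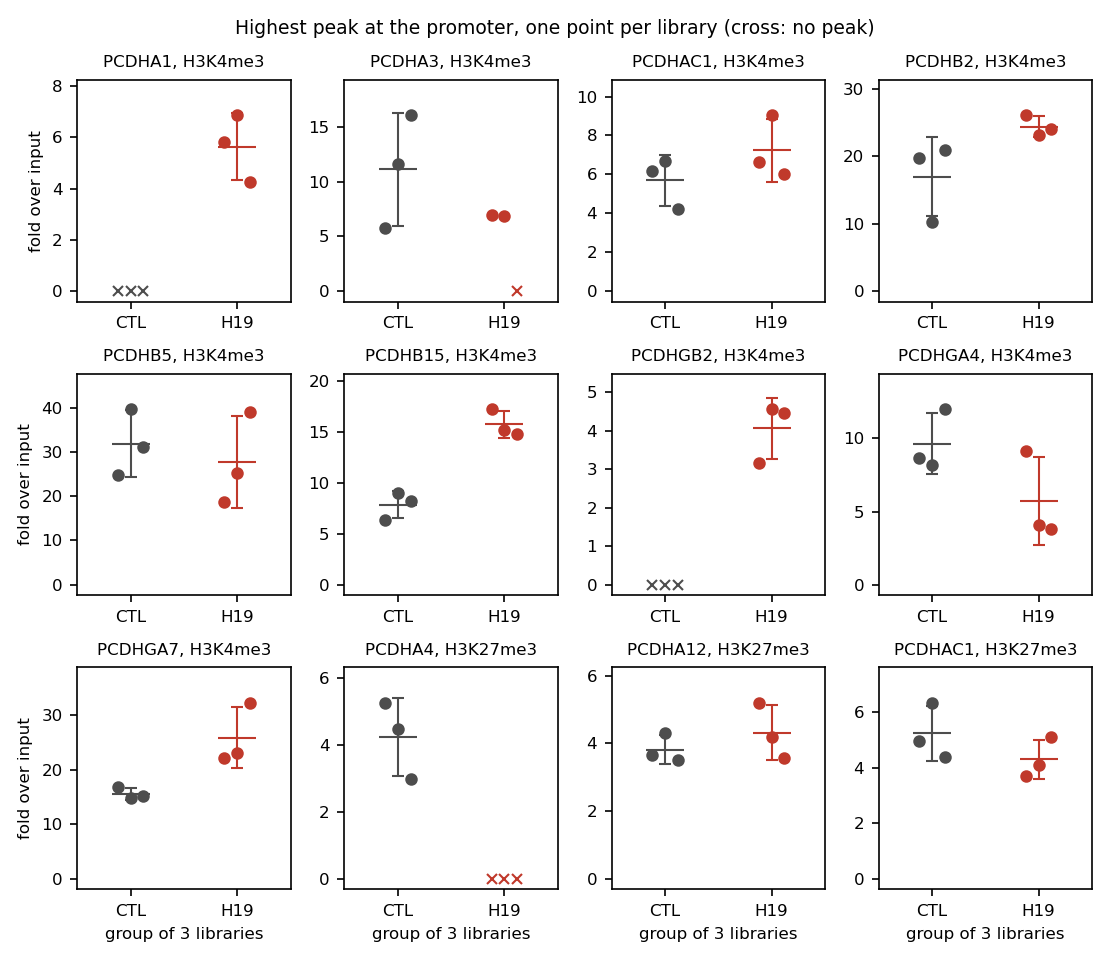
Fold over input of the highest peak at the promoter of 11 named members, 1 panel for each member and mark (PCDHAC1 has a panel for each mark), with 1 point for each of the 3 libraries of a group and bars for the mean and SD where all 3 have a peak. A cross stands for a library with no peak in its list and is drawn at 0 although no value was measured; PCDHA1 and PCDHGB2 have crosses in V16D/CTL only and PCDHA4 in V16D/H19 only.

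At PCDHA1 and PCDHGB2 the H3K4me3 calls separated the groups, with no peak in any V16D/CTL library and a peak in every V16D/H19 library. PCDHA1 is the first gene of the alpha cluster. Its V16D/H19 folds were 5.81, 6.87 and 4.25, over 645, 513 and 210 bases of the promoter. At PCDHGB2 the folds were 3.16, 4.57 and 4.46, over 237, 247 and 210 bases. The −log10 q of the lists was 6.16, 9 and 3.92 at PCDHA1 and 1.47, 3.99 and 3.79 at PCDHGB2, and with only peaks of at least 5 neither promoter separated the groups. With every list shortened to the same length PCDHA1 did and PCDHGB2 did not. Of the 36 members with an H3K4me3 peak in any library these 2 had that pattern, against 0.332% of all 12640 such promoters, and 0 of 36 had the opposite one, against 0.0396%. Either pattern can arise only at promoters called in 1 to 5 libraries, which were 17 of the 36 members and 668 of the 12640. Of those, 2 of 17 members and 42 of 668 promoters had the first pattern, and 0 of 17 and 5 of 668 the opposite one. The promoter of PCDHA1 held 4 CpG dinucleotides in 300 bases, and that of PCDHGB2 held 10. Both are printed with every CGCT in capitals, and the RefSeq sequence of PCDHGB2 belongs to a start 142 bases downstream of the gene start used for the peaks.
PCDHA1, chr5:140785890-140786189: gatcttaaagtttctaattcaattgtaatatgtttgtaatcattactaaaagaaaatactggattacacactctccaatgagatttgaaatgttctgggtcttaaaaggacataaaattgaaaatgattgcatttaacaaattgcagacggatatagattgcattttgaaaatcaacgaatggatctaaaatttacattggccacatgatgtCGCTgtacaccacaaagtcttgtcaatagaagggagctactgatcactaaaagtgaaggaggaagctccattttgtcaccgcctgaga
PCDHGB2, chr5:141359886-141360185: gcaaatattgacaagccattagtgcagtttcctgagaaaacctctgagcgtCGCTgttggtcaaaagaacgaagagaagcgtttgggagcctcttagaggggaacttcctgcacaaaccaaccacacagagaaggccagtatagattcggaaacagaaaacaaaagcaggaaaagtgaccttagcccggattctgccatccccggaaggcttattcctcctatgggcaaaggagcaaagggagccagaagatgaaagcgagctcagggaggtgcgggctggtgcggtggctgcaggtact

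H3K4me3 peaks covered more member promoters in each V16D/H19 library than in any V16D/CTL library. The counts were 27, 25 and 26 of 59 in V16D/CTL against 32, 29 and 28 in V16D/H19, with means of 26 ± 1 and 29.7 ± 2.08 (SD, n = 3 each). The two-sided exact permutation test gave p = 0.1, the smallest it can give for 3 against 3 libraries, and 0.4 after Benjamini-Hochberg adjustment over the 20 tests of counts and covered lengths. Over all promoters the share with H3K4me3 was 62.3%, 62% and 62.3% against 63%, 63.3% and 62.2%, which overlapped (exact permutation p = 0.3). With only peaks of a −log10 q of at least 5 the difference of 3.67 member promoters became 1.67 (exact permutation p = 0.7). With every list shortened to the same number of peaks it was 3 (exact permutation p = 0.3). By cluster, the counts were 6, 6 and 5 against 8, 8 and 6 of the alpha promoters, 9, 8 and 10 against 9, 10 and 8 of the beta promoters, and 12, 11 and 11 against 15, 11 and 14 of the gamma promoters, which all overlapped. The bases of the alpha cluster under H3K4me3 peaks were 2551, 2873 and 2635 in V16D/CTL against 3675, 3517 and 3053 in V16D/H19 (exact permutation p = 0.1, adjusted 0.4). The groups did not overlap there either, with means of 2.69 ± 0.167 and 3.42 ± 0.323 kb.

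Uneven H3K4me3 calls were common among the members. PCDHA1, PCDHA6, PCDHA12, PCDHA13, PCDHB10, PCDHGA2, PCDHGB2, PCDHGA5 and PCDHGA9 had an H3K4me3 peak in more V16D/H19 than V16D/CTL libraries, and PCDHA3, PCDHA7, PCDHB8 and PCDHGA8 in fewer. These 9 and 4 of 36 members compare with 3.12% and 1.5% of all 12640 promoters with a peak in any library. Members were also called in 1 to 5 of the 6 libraries more often, 47.2% of the 36 against 5.28% of the 12640. Among promoters called in 1 to 5 libraries, more V16D/H19 libraries had the peak in 52.9% of the 17 members and in 59% of all 668, and fewer in 23.5% and 28.4%. Read against promoters with uneven calls, the split of the members by direction stood near that of the genome.

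**Figure D4:**
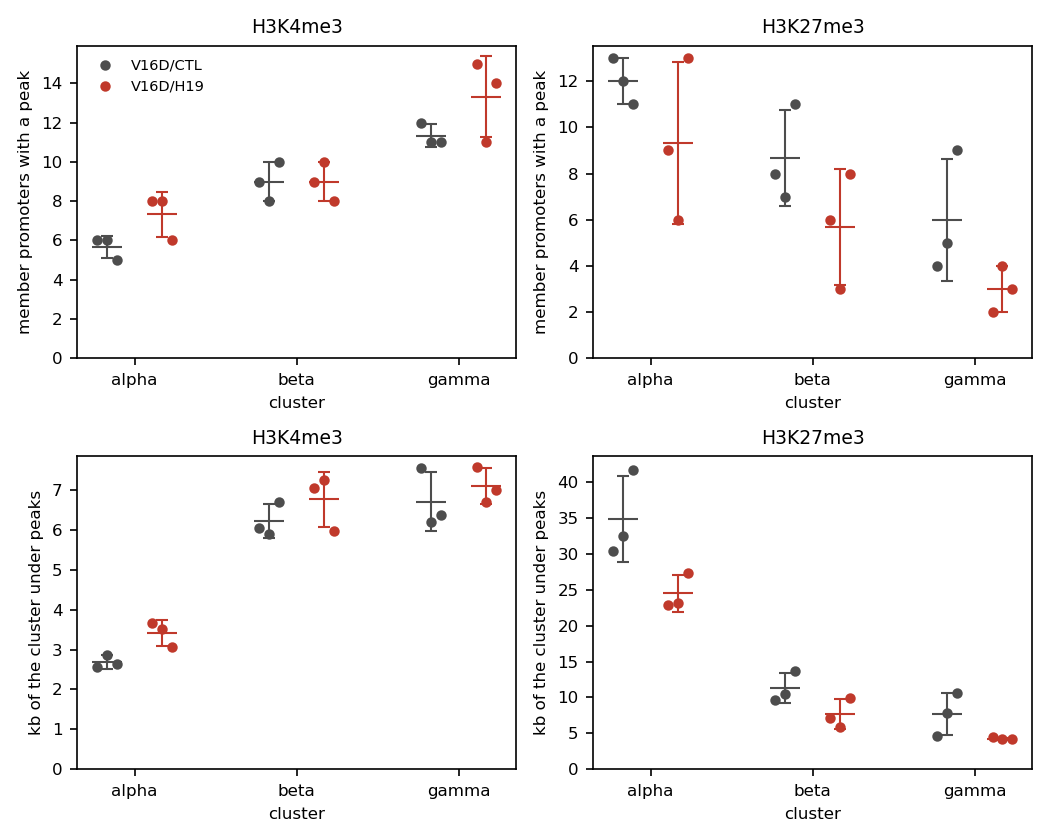
Member promoters with a peak (top) and kb of each cluster under peaks (bottom) per library, for H3K4me3 (left) and H3K27me3 (right), with V16D/CTL in dark grey and V16D/H19 in red; points are the 3 libraries and bars the mean and SD. H3K27me3 over the alpha cluster is at 30.4 to 41.7 kb in V16D/CTL against 22.9 to 27.4 kb in V16D/H19.

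H3K27me3 covered the alpha cluster most and was lower there in every V16D/H19 library. The alpha cluster had 30.4, 32.6 and 41.7 kb under H3K27me3 peaks in V16D/CTL against 22.9, 23.2 and 27.4 kb in V16D/H19, with means of 34.9 ± 6.01 and 24.5 ± 2.52 kb (SD, n = 3 each). The ratio of the means was 0.702, and the exact permutation test gave p = 0.1 (adjusted 0.4). In the beta cluster the covered length was 9.66, 10.5 and 13.7 kb against 7.13, 5.86 and 9.92 kb, which overlapped (exact permutation p = 0.2, adjusted 0.444). In the gamma cluster it was 4.63, 7.83 and 10.6 kb against 4.42, 4.16 and 4.20 kb, without overlap (exact permutation p = 0.1, adjusted 0.4). Over all clusters the means were 53.9 ± 11 and 36.4 ± 4.49 kb, a ratio of 0.675. The difference of -17488 bases became -11416 bases without V16D/CTL replicate 3, which had the longest coverage (exact permutation p = 0.2). With only peaks of a −log10 q of at least 5 it became -1984 bases, all of it in the alpha cluster, and the exact permutation p was 0.4.

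The whole H3K27me3 lists moved the same way. They covered 55.4 ± 9.05 Mb in V16D/CTL against 46.1 ± 3.29 Mb in V16D/H19 (SD, n = 3 each, ratio 0.832, exact permutation p = 0.3). Scaled to the length that each list covered, as bases in the clusters per Mb, the values were 991.8, 865.8 and 1062 in V16D/CTL against 815.0, 699.0 and 858.0 in V16D/H19, a ratio of the means of 0.812 (exact permutation p = 0.1). That scale was added after the data were seen, and on it the lowest V16D/CTL value and the highest V16D/H19 value lay close together without overlap. For the alpha cluster alone the ratio was 0.840 (exact permutation p = 0.2). With every list shortened to the same number of peaks, the difference over all clusters was -15293 bases, against -17488 with the full lists. In the alpha cluster it was -9688 against -10400 bases (exact permutation p = 0.1 for each). That setting evens the number of peaks and not their length, and the part of the shorter lists in the lower coverage was not tested beyond it.

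Member promoters with H3K27me3 numbered 25, 24 and 31 of 59 in V16D/CTL against 17, 13 and 24 in V16D/H19, with means of 26.7 ± 3.79 and 18 ± 5.57 (SD, n = 3 each, exact permutation p = 0.2, adjusted 0.444). The groups overlapped at 24, and V16D/H19 replicate 2 had the lowest count. Over all promoters the share with H3K27me3 was also lower, at 10.2%, 11.2% and 11.5% against 9.14%, 9.83% and 9.88%, without overlap (ratio of the means 0.877, exact permutation p = 0.1), where that for the members was 0.675. With only peaks of a −log10 q of at least 5 the difference of -8.67 promoters became -0.667 (exact permutation p = 0.4). Of the 45 members with an H3K27me3 peak in any library, 24 had it in more V16D/CTL than V16D/H19 libraries and 6 in fewer, which compares with 33% and 14.9% of all 3026 such promoters. Among promoters with uneven calls the shares were 58.5% of 41 members and 56.9% of all 1759 for more V16D/CTL libraries, and 14.6% and 25.6% for more V16D/H19 libraries. The 6 were PCDHA10, PCDHB5, PCDHB7, PCDHB11, PCDHGA9 and PCDHGA11.

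PCDHA4 was the 1 member with an H3K27me3 promoter peak in all V16D/CTL libraries and no V16D/H19 library, of 45, where 1.88% of all 3026 promoters had that pattern, and 0 of 45 members had the opposite one, where 0.364% did. Its folds in V16D/CTL were 5.27, 4.48 and 2.97, over 516, 393 and 426 bases of the promoter. The mark was not missing from the gene in V16D/H19 cells. Peaks began 1207, 2115 and 1155 bases after the start in the V16D/H19 libraries, beyond the end of the promoter and in replicate 2 also beyond 2 kb, with folds of up to 4.21, 3.31 and 3.63. With a promoter of 500 bases either side PCDHB3 and not PCDHA4 had the pattern, and with 2 kb PCDHGA2 did, both named here after their values were seen. The same promoter had H3K4me3 in every library, with folds of 4.46, 5.54 and 6.39 in V16D/CTL against 6.39, 6.24 and 5.67 in V16D/H19. Its sequence is printed with CGCT in capitals.
PCDHA4, chr5:140806818-140807117: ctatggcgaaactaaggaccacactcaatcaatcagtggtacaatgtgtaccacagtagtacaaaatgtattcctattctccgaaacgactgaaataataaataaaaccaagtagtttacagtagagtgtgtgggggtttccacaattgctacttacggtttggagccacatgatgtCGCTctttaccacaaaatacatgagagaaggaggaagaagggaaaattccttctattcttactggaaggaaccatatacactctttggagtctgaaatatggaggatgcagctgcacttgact

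The 4 members with H3K27me3 in all 6 libraries did not separate the groups by fold. PCDHAC1 had the highest, 4.97, 6.34 and 4.39 in V16D/CTL against 3.71, 4.08 and 5.09 in V16D/H19. PCDHA12 had 3.65, 4.29 and 3.49 against 5.20, 4.18 and 3.57, PCDHA9 had 3.90, 3.44 and 3.71 against 3.90, 3.04 and 3.53, and PCDHAC2 had 3.07, 3.62 and 3.78 against 3.53, 3.80 and 3.39. Of the 4, 0 were lower without overlap and 0 higher, where 23.3% and 1.42% of all 1267 promoters tested were. With each library centred on its median, limma called 0 of 1267 promoters (0%) and 0 of the 4 members, and at an unadjusted p under 0.05 it had 115 promoters and 0 members. The log2 difference was -0.15 (SE 0.14, limma adjusted p = 0.81) for PCDHAC1 and 0.30 (SE 0.15, limma adjusted p = 0.557) for PCDHA12. Both moved with single libraries. PCDHAC1 was at -0.01 without V16D/CTL replicate 2, -0.06 without V16D/H19 replicate 1 and -0.28 without replicate 3 of either group, and PCDHA12 was at 0.15 without V16D/H19 replicate 1.

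Promoters with both marks in cultures of the same number were 7, 9 and 12 of 59 in V16D/CTL against 7, 6 and 10 in V16D/H19, with means of 9.33 ± 2.52 and 7.67 ± 2.08 (SD, n = 3 each, exact permutation p = 0.6, adjusted 0.706). PCDHAC1 and PCDHAC2 had both in all 6, and PCDHA10 and PCDHB18P in 2 of each group. PCDHA10 had H3K4me3 folds of 3.69 and 6.52 in V16D/CTL replicates 1 and 2 and of 4.79 and 4.91 in V16D/H19 replicates 1 and 3. Its H3K27me3 folds were 3.14 and 3.85 in those V16D/CTL libraries and 3.32, 3.15 and 3.13 in the V16D/H19 libraries. PCDHAC1 had H3K4me3 folds of 6.19, 6.67 and 4.22 against 6.64, 9.04 and 6, low beside those of PCDHAC2. Taking a mark as present where at least 2 of 3 libraries had it, 16 members had H3K4me3 alone in V16D/CTL against 24 in V16D/H19, 16 and 8 had H3K27me3 alone, 10 and 7 had both, and 17 and 20 had neither. Over all 19681 promoters the shares were 56.8% and 57.7% with H3K4me3 alone and 5.22% and 4.13% with H3K27me3 alone. Those with both were 5.42% and 5.12%, and those with neither 32.6% and 33.1%. Both marks stood at 16.9% of the members in V16D/CTL against 11.9% in V16D/H19, and neither at 28.8% against 33.9%.

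The authors' tables of differential sites held 3 sites annotated to members. The H3K27me3 site of PCDHAC1, at chr5:140922425-140930694 over its promoter, had an authors' mean log2 concentration of 7.20 in V16D/CTL against 6.72 in V16D/H19, a difference of -0.48. Peaks covered 4721, 2844 and 5311 bases of it in V16D/CTL against 3796, 3713 and 3534 in V16D/H19, which overlapped (exact permutation p = 0.4). The H3K4me3 site of PCDHA3, at chr5:140800961-140801640 over its start, had authors' means of 5.10 in V16D/CTL against 3.56 in V16D/H19, a difference of -1.54. The peaks at PCDHA3 had folds of 5.79, 11.6 and 16.1 in V16D/CTL against 6.92 and 6.87 in V16D/H19 replicates 1 and 2, with no peak in replicate 3. The H3K4me3 site at chr5:141040318-141040978 was annotated to PCDHB1 although its listed distance from the start of that gene was -10157 bases, between the alpha and beta clusters. Its authors' means were 1.58 in V16D/CTL against 3.79 in V16D/H19, a difference of 2.21. No V16D/CTL library had a peak there, and the V16D/H19 libraries had folds of 3.99, 6.33 and 4.50, whereas the promoter of PCDHB1 had a peak in all 6. From PCDHA1 to the end of the gamma cluster, 2 of 39 merged H3K4me3 sites found in 2 or more libraries overlapped a listed site, against 9.35% of 20708 in the genome, and 1 of 63 H3K27me3 sites, against 3.15% of 58789.

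Away from promoters the clusters held few H3K4me3 sites and many H3K27me3 sites. Of the 44 merged H3K4me3 sites of the locus, 38 touched a member promoter, and of the 155 merged H3K27me3 sites 67 did. In the H3K27me3 data 92 of the 155 were called in 1 library only and 15 in all 6, of which 12 lay in the alpha cluster. Of those 15, the widest was 5752 bases over the promoter of PCDHAC1 (chr5:140923630-140929381), and the next 5352 bases over the pseudogene PCDHA14 (chr5:140859609-140864960). In the gamma cluster the sites called in all 6 libraries lay over the promoter of PCDHGA11 (chr5:141419883-141423671) and, with its midpoint 2923 bases after the start, within PCDHGC5 (chr5:141490887-141493121). A merged site joins the peaks of all libraries, so a promoter under it need not have a peak in each. The promoter of PCDHA14 had no H3K27me3 peak in V16D/H19 replicate 2, and that of PCDHGA11 had none in V16D/CTL replicate 1.

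H3K4me3 calls at genes beside the clusters, and at genes known to act on them, were the same in all 6 libraries. HARS1, HARS2 and ZMAT2 before the alpha cluster and TAF7 between the beta and gamma clusters had H3K4me3 in all 6 libraries, and SLC25A2, also between them, had none. At TAF7 the folds were 48.7, 37.1 and 60.6 in V16D/CTL against 32.4, 73.5 and 53.5 in V16D/H19. All 12 listed regulators (CTCF, the cohesin genes RAD21, SMC1A, SMC3, STAG1 and STAG2, their loader NIPBL and releaser WAPL, and SMCHD1, DNMT3B, SETDB1 and WIZ) had H3K4me3 in all 6 libraries and H3K27me3 in none. By H3K4me3 fold, WIZ, named here after its values were seen, was higher without overlap. It had 24.4, 18.6 and 20.3 in V16D/CTL against 34.9, 34.2 and 38.5 in V16D/H19. So did 7.13% of the 11972 promoters with a peak in all 6 libraries separate, and limma called 0 of them. The folds of the other regulators overlapped between the groups. Among 11 non-clustered protocadherins, 6 had H3K4me3 in all 6 libraries and 2 in none. PCDH7 and PCDH20 had H3K4me3 folds lower in V16D/H19 without overlap, as 3.96% of all 11972 promoters with a peak in all 6 did. At PCDH20 they were 29, 26 and 24.7 in V16D/CTL against 9.88, 9.81 and 12.5. PCDH17 had H3K4me3 in more V16D/CTL libraries, and PCDH8 and PCDH11X in more V16D/H19 libraries. PCDH18 was the 1 of the 11 with H3K27me3 in all V16D/CTL and no V16D/H19 library, at folds of 3.55, 4.04 and 3.48. Of all 3026 promoters with an H3K27me3 peak in any library 1.88% had that pattern, and 6 of the 11 had no such peak. For the identity of the cells, all 5 luminal markers (KLK2, KLK3, KRT8, KRT18 and TMPRSS2) had H3K4me3 in all 6 libraries, and the basal markers KRT5, KRT14 and TP63, the blood markers PTPRC and CD3E and the endothelial marker CDH5 had none in any. Of the neuroendocrine markers, SYP had H3K4me3 in all 6 and CHGA in none. KRT8 and KRT18 had the same H3K4me3 folds in each library, as did HARS1 and HARS2, so the calls within each pair are not independent.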

How the data were processed

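The 12 ChIP libraries (3 per group and mark) were grouped by the titles given to them, and the 6 input libraries entered only through the authors' peak calling. For every library the authors ran MACS2 with the input of the same culture as control, in narrow mode (H3K4me3) or broad mode (H3K27me3), on hg38 per the submitters' processing notes; the aligner is not given in the sources used here. The deposited lists hold, per peak, the fold enrichment over input as a ratio, −log10 p-values and q-values, and a display score that was not used. The broad fold is a mean over the region and the narrow fold is taken at the summit, so the marks were not compared by fold. The authors' tables of differential sites, made with DiffBind and annotated with ChIPseeker, hold log2 concentrations averaged over the 3 libraries of a group, and a fold, p-value and FDR that were not used; they list sites past the authors' limit. Deposited per-sample columns left unused numbered 0.

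Gene starts came from RefSeq (GRCh38.p14), with strand from RefSeq promoters or, by symbol, from GENCODE. Of 20037 protein-coding genes 362 had no strand and were not examined; PECAM1, listed as an endothelial marker, was not examined either. A promoter with at least 1 base under a peak counted as marked, and its value was the highest fold. Peak numbers were 20048 to 21934 for H3K4me3 and 55060 to 72289 for H3K27me3, and read depth was not used. Values per library were compared with two-sided exact permutation tests over 20 assignments. Folds were tested with limma 3.58.1 in R 4.3.3 over promoters with a peak in all 6 libraries, and the code was tested on simulated data. Alternatives covered the promoter width, overlap, peak threshold, list length, pseudogenes, cluster margin, scaling of the folds, the replicate block and each library left out. Members with values were those with a peak in all 6 libraries (the 12 highest per mark), with calls that separate the groups, with both marks in at least 2 libraries of each group, or annotating a listed site; others are said to be chosen after their values were seen. Members and lists were chosen with earlier results of these data known. The labels give biological triplicates, and p-values measure the spread between those cultures.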

Additional observations from a re-analysis of the deposited data

How the results depend on the processing

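The direction of the counts of promoters with H3K4me3 or H3K27me3 and of the covered lengths held under each alternative that applied to them (promoters of 500 bases or 2 kb either side, peaks with a −log10 q of at least 5, lists of equal length, an overlap of at least 200 bases, protein-coding members, a 10 kb margin, each library left out the replicate block and, added after the data were seen, lengths per Mb covered), and none could pass 0.05. The difference in promoters with both marks was 0 with lists of equal length and negative otherwise. The members whose calls separated the groups depended on the choice. For H3K4me3 there were 2 (PCDHA1 and PCDHGB2), but 0 with a −log10 q of at least 5 and 1 (PCDHA1) with lists of equal length. For H3K27me3 there was 1 (PCDHA4), but 0 with a −log10 q of at least 5, 0 with lists of equal length and 2 (PCDHA4 and PCDHB3) with an overlap of 200 bases. With 500 bases or 2 kb either side the count stayed at 1, but the member was PCDHB3 or PCDHGA2, named after their values were seen. Apart from the stricter q, which removes weak peaks, the cause was not tested. Limma called 0 members under every alternative for both marks; over all H3K27me3 promoters it called 4 with no centring, against 0,, and over all H3K4me3 promoters 1 without V16D/H19 replicate 2. The group mean at each promoter was subtracted from the centred log2 fold of each culture. These deviations, and not the profiles themselves, were correlated between the 2 groups. For same-numbered cultures the correlations over promoters were small, at 0.0156, 0.0391 and 0.0346 for H3K4me3 and -0.0676, 0.00188 and -0.0238 for H3K27me3. Between cultures of unlike number they ran from -0.0378 to 0.00256 for H3K4me3, below every same-numbered value, and from -0.0371 to 0.0593 for H3K27me3. The numbers were not taken as pairs in the main tests, and the replicate block was run as an alternative. With the replicate block the exact permutation p was 0.25, the smallest it can give, for the difference of 3.67 promoters with H3K4me3 and for that of -17488 bases under H3K27me3, and limma called 0 members and 4 promoters for H3K27me3. Leaving out 1 library moved the difference in bases under H3K27me3 between -22084 and -11416, and that in promoters with both marks between -2.83 and -0.333. The depth of the libraries is not in the lists, and its part in the weakest calls was not tested. With 3 libraries per group no permutation test could go below 0.1.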
